A study of Mus musculus with 13 samples.

Results

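The genes described here are the members of the tumor necrosis factor (TNF) superfamily of ligands and of the TNF receptor superfamily that were measured in alloreactive mouse CD4+ T cells. They were chosen by a rule on symbols, which was set with earlier results of these data known. The rule took every gene whose single annotated symbol begins with Tnfrsf or Tnfsf and a digit. It also took Fas, Fasl, Cd27, Cd70, Cd40, Cd40lg, Lta, Ltb and Ltbr. This gave 38 of the 22180 genes with a probe set of their own, 24 receptors and 14 ligands, each represented by 1 probe set. Tnfsf12 and Tnfsf13 share a probe set that carries several symbols and, like Tnfsf13os, were not analysed here. Another probe set, annotated to both Tnfrsf18 and Gm16008, was also left out, and Tnfrsf18 is represented by its single-symbol probe set.

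The study asked how compounds that bind AhR (the aryl hydrocarbon receptor), a transcription factor switched on by small molecules, alter newly activated donor CD4+ T cells in acute graft-versus-host disease. Splenocytes of C57BL/6 donors, stained with the division dye CFSE, were transferred into B6D2F1 hosts, and the mice were 10 to 12 weeks old. Hosts in the Cl-BBQ group (5 arrays) received 10 mg/kg Cl-BBQ intraperitoneally on each of days 0 to 2, hosts in the TCDD group (4 arrays) received 15 μg/kg TCDD on day 0 only, and hosts in the vehicle group (4 arrays) received vehicle on days 0 to 2. TCDD is the prototypical, slowly metabolised AhR ligand, and the regimens differed in dose as well as in schedule. At 72 h, on day 3, CD4+ cells of spleen and lymph node were enriched on beads and sorted by flow cytometry for dilution of CFSE by at least 2 divisions, so that all 3 groups hold cells that had divided in the host. The labels call the arrays of a group biological replicates and give 4 to 5 hosts per group, but do not say that each array is 1 host, so p-values measure only the spread between these samples.

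Ligands of the TNF superfamily are mostly trimeric membrane proteins that bind receptors on a neighbouring cell. Costimulatory receptors of the family recruit TRAF adaptors and activate NF-kappaB, which prolongs the survival and division of T cells after antigen contact, whereas receptors with a death domain can recruit FADD and caspase-8 and start apoptosis. In graft-versus-host disease donor T cells use several of these pairs, among them OX40 ligand with OX40, 4-1BB ligand with 4-1BB, and Fas ligand with Fas on host tissue.

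Expression is given on the deposited log2 scale, and a level was regarded as at background when it lay at or below 4.31, the median of all values on the 13 arrays. A gene was tested when it lay above that floor on at least 4 arrays, which held for 12710 genes and for 31 of the 38 members. A gene was called when its adjusted p from limma, with Benjamini-Hochberg adjustment over all tested genes, was below 0.05. The sorted cells carried T cell transcripts at a high level: the mean of 8 CD4 T cell markers per array was 10.53 to 10.67 in Cl-BBQ arrays, 10.56 to 10.61 in TCDD arrays and 10.33 to 10.56 in vehicle arrays. None of the 8 was called in any comparison of the main fit, but all 8 differences from vehicle were positive with each compound. Vehicle replicate 3 was the lowest vehicle array for every marker but Trat1. With 1 array left out, the lowest difference with TCDD was -0.02 for Cd4, -0.07 for Cd2 and -0.1 for Trat1, so the common sign depended in part on single arrays. Of the 8, 1 lay wholly above vehicle in Cl-BBQ and 4 in TCDD, beside 6.08% and 6.31% of all tested genes. With an intensity trend and robust prior, Cd3d was called as higher with Cl-BBQ (limma, adjusted p = 0.0039) and TCDD (0.045). Cd3g was then called as higher with Cl-BBQ (0.046). Over all probe sets the arrays correlated with each other at 0.943 to 0.976, and array medians lay between 4.27 and 4.33. In bulk samples, fewer cells of a type and less RNA per cell cannot be told apart.

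Of the 31 tested members, 7 were called in Cl-BBQ against vehicle and 7 in TCDD against vehicle, comparisons that use the same 4 vehicle arrays and so are not independent of each other. In each, the receptors Tnfrsf9 (4-1BB), Cd27 and Tnfrsf18 (GITR) and the death ligand Fasl were higher with the AhR ligand. The costimulatory ligands Tnfsf4 (OX40 ligand) and Tnfsf8 (CD30 ligand) and the receptor Tnfrsf19 were lower. The called members were 22.6% of those tested, beside 11.3% of all tested genes in Cl-BBQ against vehicle and 6.71% in TCDD against vehicle. By direction, 4 members were higher and 3 lower in each comparison. Among all tested genes, 5.31% were higher and 6.03% lower in Cl-BBQ against vehicle, and 3.21% were higher and 3.5% lower in TCDD against vehicle. Tnfrsf19 passed the filter on low values only through its vehicle arrays; without it, 6 of 30 tested members (20.0%) were called in each comparison. The median difference over the 31 tested members was 0.18 log2 for Cl-BBQ minus vehicle and 0.07 for TCDD minus vehicle, against -0.0064 and -0.0009 over all tested genes.

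**Figure D1:**
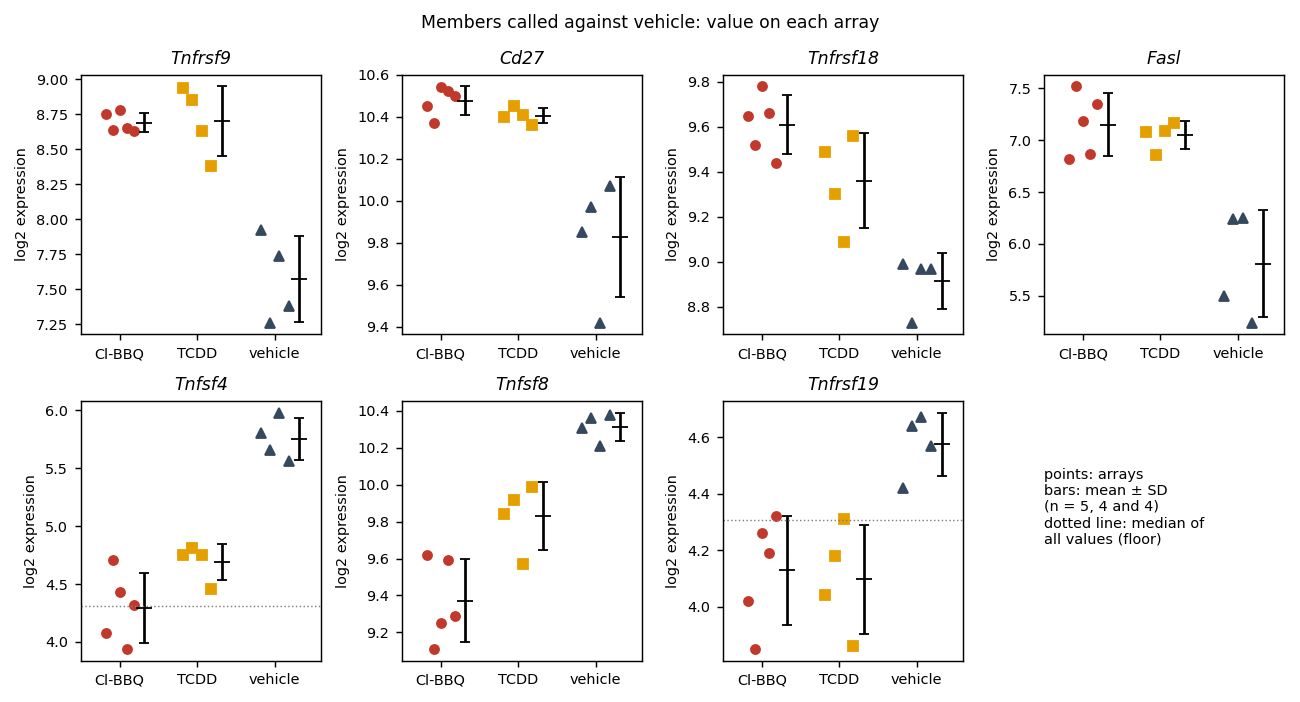
Log2 expression (y axis) of the 7 called members on each array, by group (x axis), with the mean and SD of each group (n = 5 Cl-BBQ, 4 TCDD and 4 vehicle); each panel has its own y range that does not start at 0, and the dotted line is the floor of 4.31. In every panel the vehicle arrays are separated from all arrays of both AhR ligands, above them for Tnfsf4, Tnfsf8 and Tnfrsf19 and below them for the other 4.

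The costimulatory receptors held 3 of the 4 members that rose. Tnfrsf9 encodes 4-1BB (CD137), a receptor induced on activated T cells that signals through TRAF1 and TRAF2. RefSeq lists transcripts from 2 start sites of mouse Tnfrsf9, and their windows are shown because the gene had the largest difference among the tested receptors and because the windows differ in the motifs they hold. Each window runs from 250 bases before to 50 bases after a start, 5′ to 3′ on the gene's strand, in build GRCm38.p6. Capitals mark matches to an AP-1 motif (TGANTCA) and to an NF-kappaB motif (GGGNN directly followed by TTNCC), searched on both strands.
Tnfrsf9, upstream start, chr4:150919905-150920204, plus strand: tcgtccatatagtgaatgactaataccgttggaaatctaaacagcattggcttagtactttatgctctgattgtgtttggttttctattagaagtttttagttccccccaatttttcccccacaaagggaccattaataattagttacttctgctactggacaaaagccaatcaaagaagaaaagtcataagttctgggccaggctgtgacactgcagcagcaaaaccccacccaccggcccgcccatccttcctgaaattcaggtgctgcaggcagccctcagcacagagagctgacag
Tnfrsf9, downstream start, chr4:150927749-150928048, plus strand: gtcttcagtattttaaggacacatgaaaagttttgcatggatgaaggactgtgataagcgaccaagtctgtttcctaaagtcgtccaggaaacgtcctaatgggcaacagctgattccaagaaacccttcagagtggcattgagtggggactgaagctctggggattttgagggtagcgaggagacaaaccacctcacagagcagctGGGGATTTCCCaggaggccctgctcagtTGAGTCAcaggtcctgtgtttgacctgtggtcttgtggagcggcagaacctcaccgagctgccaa
The window of the downstream start held 1 AP-1 match and 2 NF-kappaB matches that overlap each other, and the window of the upstream start held neither. Neither window held GCGTG, the core of the motif that AhR and its partner ARNT bind. A match is a description of the letters in the window and not evidence of binding.

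Tnfrsf9 stood at 8.75, 8.64, 8.78, 8.65 and 8.63 in Cl-BBQ arrays, at 8.94, 8.85, 8.63 and 8.38 in TCDD arrays and at 7.92, 7.26, 7.74 and 7.38 in vehicle arrays. Every array of either AhR ligand lay above every vehicle array, and the Cl-BBQ arrays were close together. The difference from vehicle was 1.12 ± 0.14 log2 (SE) with Cl-BBQ, a 2.17-fold higher level (limma, adjusted p = 7.4e-05), and 1.12 ± 0.15 with TCDD, 2.18-fold higher (adjusted p = 0.00022).

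Cd27 encodes a receptor that T cells carry from the naive stage onward and that binds CD70. Its level was 10.45, 10.37, 10.54, 10.52 and 10.50 in Cl-BBQ arrays, 10.40, 10.45, 10.41 and 10.36 in TCDD arrays and 9.85, 9.97, 9.42 and 10.07 in vehicle arrays. The groups given an AhR ligand did not overlap with vehicle, whose arrays were more scattered (SD 0.29, n = 4) than those of Cl-BBQ (SD 0.07, n = 5) or TCDD (SD 0.03, n = 4). Cd27 was higher than in vehicle by 0.65 ± 0.11 log2 with Cl-BBQ, 1.57-fold (limma, adjusted p = 0.0011), and by 0.58 ± 0.12 with TCDD, 1.5-fold (adjusted p = 0.0069).

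Tnfrsf18 encodes GITR, which is constitutively expressed on regulatory T cells and induced on other T cells by activation. It measured 9.65, 9.52, 9.78, 9.66 and 9.44 in Cl-BBQ arrays, 9.49, 9.30, 9.09 and 9.56 in TCDD arrays and 8.99, 8.73, 8.97 and 8.97 in vehicle arrays. All arrays of both AhR ligands exceeded the vehicle arrays, with TCDD replicate 3 closest to them. The rise was 0.69 ± 0.11 log2 with Cl-BBQ, 1.62-fold (limma, adjusted p = 0.00053), and 0.45 ± 0.12 with TCDD, 1.36-fold (adjusted p = 0.032). The call with TCDD depended on single arrays: it was lost, at adjusted p of 0.053 to 0.1, when TCDD replicate 1, 2 or 4 or any 1 of the 4 vehicle arrays was left out, and it was lost when arrays were centred on their medians (0.054), only the groups compared were fitted (0.057) or no filter on low values was used (0.066). The call with Cl-BBQ was kept under every alternative run.

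The other 5 costimulatory receptors were not called in either comparison. Tnfrsf4 (OX40), the receptor for the Tnfsf4 product, averaged 9.36 ± 0.23 in Cl-BBQ arrays, 9.35 ± 0.07 in TCDD arrays and 9.16 ± 0.25 in vehicle arrays (SD). Its difference from vehicle was 0.20 ± 0.13 log2 with Cl-BBQ (95% interval -0.08 to 0.48) and 0.20 ± 0.14 with TCDD (-0.10 to 0.49). Tnfrsf4 and Tnfrsf18 are adjacent genes on chromosome 4, and whether their differences are unequal was not tested. Tnfrsf14 (HVEM), which binds LIGHT and BTLA, differed from vehicle by 0.32 ± 0.13 with Cl-BBQ (limma, adjusted p = 0.17) and 0.27 ± 0.14 with TCDD (adjusted p = 0.34). Tnfrsf1b, the TNF receptor without a death domain that activated T cells carry, differed by -0.02 ± 0.12 with Cl-BBQ and 0.04 ± 0.12 with TCDD. Tnfrsf25 (DR3), a costimulatory receptor with a death domain, differed by 0.18 ± 0.14 with Cl-BBQ and 0.05 ± 0.15 with TCDD. Tnfrsf8 (CD30), the receptor for the Tnfsf8 product, lay near the floor, at 4.18 ± 0.19 in Cl-BBQ arrays, 4.59 ± 0.52 in TCDD arrays and 4.30 ± 0.05 in vehicle arrays. As a list, which was drawn up with earlier results of these data known, 3 of 8 costimulatory receptors (37.5%) were higher and 0 lower in each comparison. Among all tested genes, 5.31% were higher with Cl-BBQ and 3.21% with TCDD. The median difference was 0.26 with Cl-BBQ, where 6 of 8 were positive, and 0.28 with TCDD, where all 8 were positive. Over all tested genes the medians were -0.0064 and -0.0009. On the chromosomes, 7 of these 8 receptors lie on chromosome 4, and Cd27 lies on chromosome 6 near Ltbr and Tnfrsf1a.

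Of the 4 death receptors, 0 passed in Cl-BBQ against vehicle and 0 in TCDD against vehicle, with 1 gene in each at an unadjusted p below 0.05. Over all tested genes 11.3% and 6.71% were called in these comparisons, so that a count of 0 among 4 genes does not set the death receptors apart. Fas, the receptor for Fas ligand, averaged 7.41 ± 0.10 in Cl-BBQ arrays, 7.29 ± 0.18 in TCDD arrays and 7.43 ± 0.17 in vehicle arrays, and the 3 groups overlapped. Its difference from vehicle was -0.02 ± 0.11 log2 with Cl-BBQ (95% interval -0.25 to 0.21) and -0.14 ± 0.11 with TCDD (-0.38 to 0.10). Tnfrsf1a, the death domain receptor for TNF, differed by 0.30 ± 0.13 with Cl-BBQ (limma, adjusted p = 0.18) and 0.01 ± 0.14 with TCDD (adjusted p = 0.99). Tnfrsf10b, the mouse receptor for TRAIL, differed by 0.28 ± 0.14 with Cl-BBQ (adjusted p = 0.25) and 0.35 ± 0.15 with TCDD (adjusted p = 0.21). Tnfrsf21 (DR6) differed by 0.20 ± 0.21 with Cl-BBQ and -0.16 ± 0.22 with TCDD, and its TCDD arrays were spread from 3.76 to 5.02. The median difference of the death receptors was 0.24 with Cl-BBQ and -0.06 with TCDD. The difference between this list and the costimulatory receptors was not tested.

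**Figure D2:**
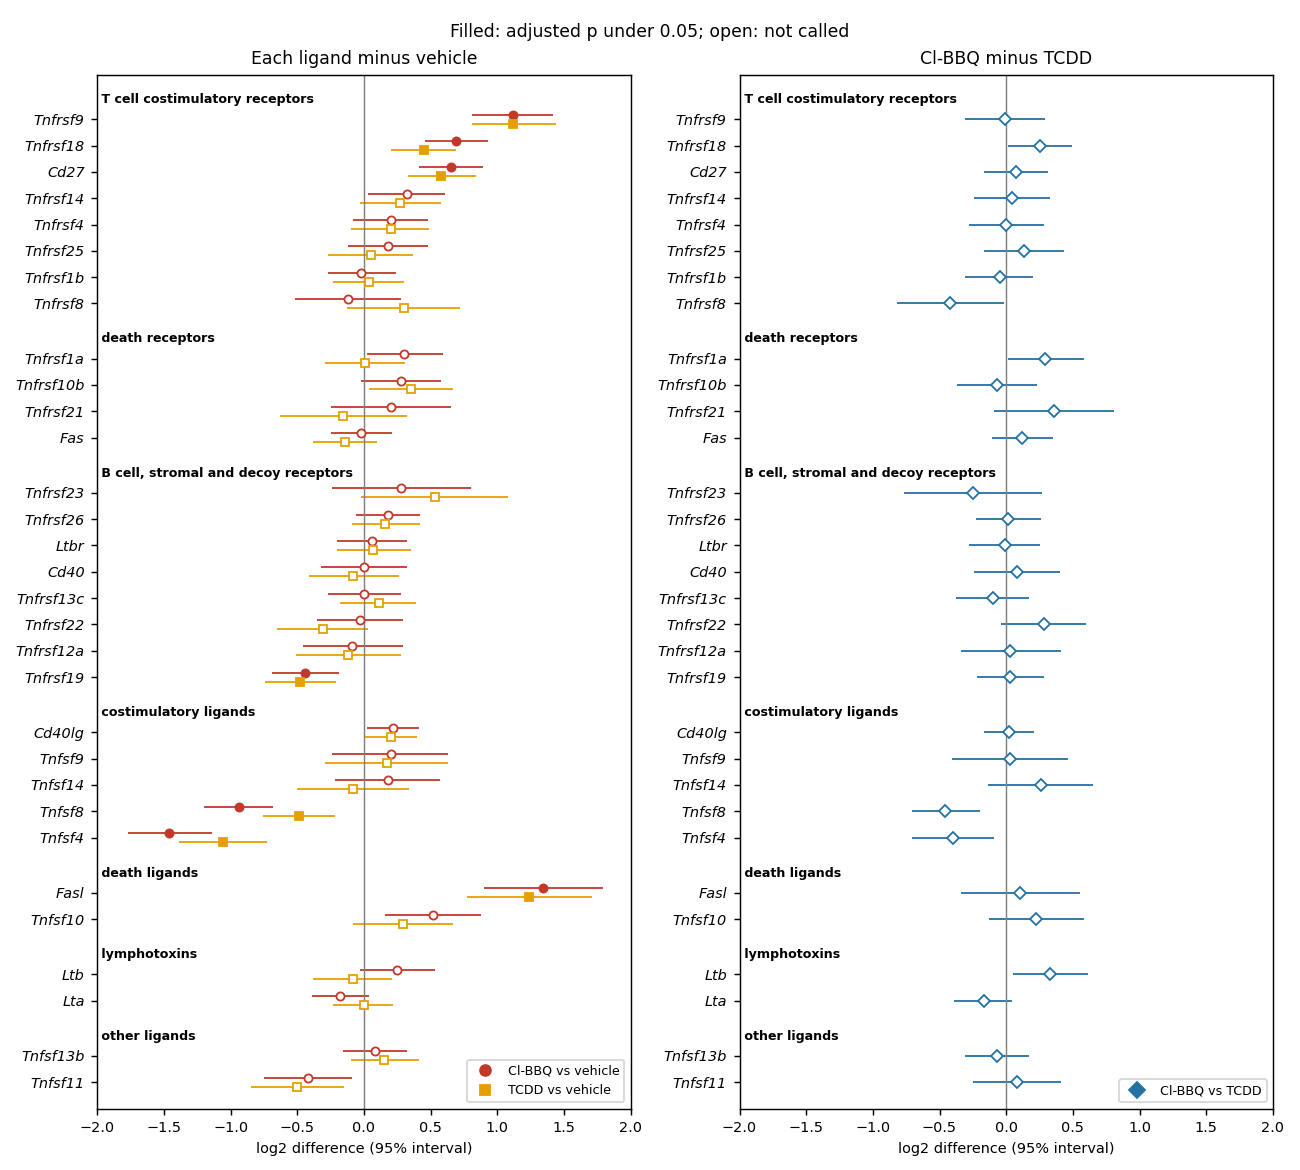
Log2 difference and 95% interval (x axis) of the 31 tested members, by role (y axis): left, Cl-BBQ minus vehicle (circles) and TCDD minus vehicle (squares), and right, Cl-BBQ minus TCDD (diamonds). Filled symbols, adjusted p below 0.05, appear for 7 members in the left panel, from -1.46 for Tnfsf4 to 1.34 for Fasl with Cl-BBQ, and for no member in the right panel.

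Of the 12 B cell, stromal and decoy receptors, 8 were tested and 1 was called in each comparison with vehicle (12.5%). Among all tested genes, 11.3% were called with Cl-BBQ and 6.71% with TCDD. Tnfrsf19 (TROY), a receptor known mainly from the nervous system and epithelial stem cells, measured 4.02, 3.85, 4.26, 4.19 and 4.32 in Cl-BBQ arrays, 4.04, 4.18, 4.31 and 3.86 in TCDD arrays and 4.42, 4.64, 4.67 and 4.57 in vehicle arrays. Only the vehicle arrays and Cl-BBQ replicate 5 lay above the floor, so the values of both AhR ligand groups are background. The fitted difference was -0.44 ± 0.12 log2 with Cl-BBQ (limma, adjusted p = 0.021) and -0.48 ± 0.12 with TCDD (adjusted p = 0.03). The Cl-BBQ call was lost without vehicle replicate 2 (0.063) or 3 (0.065), and the TCDD call, at 0.062 to 0.093, without TCDD replicate 1 or 4 or vehicle replicate 2, 3 or 4, and at 0.06 with no filter on low values. Among receptors of B cells, Tnfrsf13c (BAFF receptor) averaged 6.02 ± 0.15 in Cl-BBQ arrays, 6.12 ± 0.28 in TCDD arrays and 6.02 ± 0.15 in vehicle arrays, and Cd40 lay near the floor in all groups. Ltbr, the lymphotoxin β receptor, differed from vehicle by 0.06 ± 0.12 with Cl-BBQ and 0.07 ± 0.13 with TCDD, and Tnfrsf12a, the receptor for TWEAK, by -0.09 ± 0.17 with Cl-BBQ and -0.12 ± 0.18 with TCDD. Tnfrsf22, Tnfrsf23 and Tnfrsf26 are neighbours on chromosome 7, and Tnfrsf22 and Tnfrsf23 are mouse decoy receptors for TRAIL. Their differences ran from -0.03 to 0.28 with Cl-BBQ and from -0.31 to 0.53 with TCDD, none called.

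The costimulatory ligands included 2 members that fell, of 5 tested of 8. Among all tested genes, 6.03% were lower with Cl-BBQ and 3.5% with TCDD. Tnfsf4 encodes OX40 ligand, which antigen-presenting cells and activated T cells express and which engages OX40 on T cells. It measured 4.08, 4.71, 4.43, 3.94 and 4.32 in Cl-BBQ arrays, 4.75, 4.81, 4.75 and 4.46 in TCDD arrays and 5.80, 5.66, 5.98 and 5.56 in vehicle arrays. Vehicle arrays were apart from all others, and the Cl-BBQ mean of 4.30 lay below the floor, with 3 of 5 arrays above it. The difference was -1.46 ± 0.15 log2 with Cl-BBQ, 2.74-fold lower (limma, adjusted p = 8.1e-06), and -1.06 ± 0.15 with TCDD, 2.08-fold lower (adjusted p = 0.00047). Values at the floor limit how large a fold can be read there.

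Tnfsf8 encodes CD30 ligand, a membrane protein of activated T cells. Its window is shown because, with Tnfrsf19, it was one of the called members whose window held the AhR core GCGTG. The capitals mark that match, which lies on the opposite strand and so reads as the reverse complement.
Tnfsf8, chr4:63861235-63861534, minus strand: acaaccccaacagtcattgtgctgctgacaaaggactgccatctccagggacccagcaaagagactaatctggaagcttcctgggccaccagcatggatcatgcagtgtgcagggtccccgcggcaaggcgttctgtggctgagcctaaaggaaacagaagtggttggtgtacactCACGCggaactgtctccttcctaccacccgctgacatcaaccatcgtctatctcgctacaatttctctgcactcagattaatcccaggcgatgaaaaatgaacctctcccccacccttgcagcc
Its level was 9.62, 9.11, 9.25, 9.59 and 9.29 in Cl-BBQ arrays, 9.84, 9.92, 9.57 and 9.99 in TCDD arrays and 10.31, 10.36, 10.21 and 10.38 in vehicle arrays. The vehicle arrays were above all others, and the lowest TCDD array overlapped with the highest Cl-BBQ arrays. The gene fell by 0.94 ± 0.12 log2 with Cl-BBQ, 1.92-fold (limma, adjusted p = 7.7e-05), and by 0.49 ± 0.13 with TCDD, 1.4-fold (adjusted p = 0.031). The TCDD call was lost, at adjusted p of 0.067 to 0.1, without TCDD replicate 1 or 3 or vehicle replicate 1, 2 or 4, and with no filter on low values (0.062), whereas the Cl-BBQ call was kept under every alternative run.

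The other ligands of this list gave no call. Cd40lg, the T cell ligand that licenses antigen-presenting cells through CD40, averaged 9.15 ± 0.12 in Cl-BBQ arrays, 9.13 ± 0.06 in TCDD arrays and 8.94 ± 0.12 in vehicle arrays. Its difference was 0.22 ± 0.09 with Cl-BBQ (limma, adjusted p = 0.16) and 0.20 ± 0.09 with TCDD (adjusted p = 0.29). Tnfsf9 (4-1BB ligand), the ligand for the Tnfrsf9 product, differed by 0.20 ± 0.20 with Cl-BBQ and 0.17 ± 0.21 with TCDD, and Tnfsf14 (LIGHT) by 0.18 ± 0.18 with Cl-BBQ and -0.08 ± 0.19 with TCDD. Cd70, Tnfsf15 and Tnfsf18, the ligands for CD27, DR3 and GITR, had group means below the floor and were not tested. Cd70 averaged 2.99 ± 0.13 in Cl-BBQ arrays, 3.12 ± 0.22 in TCDD arrays and 3.00 ± 0.04 in vehicle arrays, and Tnfsf18 averaged 2.25 ± 0.09 in Cl-BBQ, 2.46 ± 0.32 in TCDD and 2.42 ± 0.14 in vehicle arrays.

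Since Tnfsf4 and Tnfsf8 are also products of antigen-presenting cells, markers of such cells are given beside them. For comparison with the counts below, 11.3% of all tested genes were called with Cl-BBQ and 6.71% with TCDD against vehicle. The mean level of 11 B cell markers per array was 3.69 to 3.92 in Cl-BBQ arrays, 3.69 to 3.87 in TCDD arrays and 3.91 to 4.01 in vehicle arrays, and 6 of the 11, Ms4a1 (CD20) among them, were not above the floor on any array. Of the 5 that were tested, 1 was called: Cd22 averaged 4.10 ± 0.16 in Cl-BBQ arrays, 4.03 ± 0.24 in TCDD arrays and 6.17 ± 0.32 in vehicle arrays. It was above the floor on 0 Cl-BBQ, 0 TCDD and all 4 vehicle arrays, so it was tested only through the vehicle arrays and the size of its difference is limited by the floor. The other 4 did not follow it: Cd79b differed by 0.64 ± 0.26 with Cl-BBQ (limma, adjusted p = 0.16, and 0.05, called as higher, without Cl-BBQ replicate 1) and 0.10 ± 0.28 with TCDD, and Cd79a, Pax5 and Blk by -0.20 to 0.17 with Cl-BBQ and -0.02 to 0.18 with TCDD. For 11 macrophage and monocyte markers the mean was 4.17 to 4.43 in Cl-BBQ arrays, 4.17 to 4.48 in TCDD arrays and 4.60 to 4.69 in vehicle arrays, and the means of 7 of them, including Csf1r, Itgam and Adgre1, were below the floor. Cybb, called as lower in both comparisons, averaged 4.11 ± 0.42 in Cl-BBQ arrays, 4.44 ± 0.70 in TCDD arrays and 6.58 ± 0.50 in vehicle arrays, with 2 of 5 Cl-BBQ, 2 of 4 TCDD and 4 of 4 vehicle arrays above the floor, which limits the size of its difference too. Ly6c2, which T cells also express, fell by 1.14 with Cl-BBQ and by 1.30 with TCDD. Cd68 rose by 0.64 with Cl-BBQ and by 0.79 with TCDD. These 3 were the called ones of 6 tested in each comparison with vehicle (50%), and Cybb and Ly6c2 had the largest falls of the list. The other tested markers were not called. Fcgr3 differed by 0.37 ± 0.14 with Cl-BBQ (limma, adjusted p = 0.12) and 0.18 ± 0.15 with TCDD. Fcgr1 differed by -0.05 with Cl-BBQ and -0.14 with TCDD, and Csf1r by -0.18 and -0.17. The calls of Ly6c2 and Cd68 were each lost in 5 to 7 of the 13 fits with 1 array left out (limma, adjusted p of 0.052 to 0.13), and those of Cd22 and Cybb in none. Of 9 dendritic cell markers, 6 had means below the floor and 0 were called, with 0 at an unadjusted p below 0.05 in Cl-BBQ against vehicle and 1 in TCDD against vehicle. The latter was Ccr7, which averaged 8.93 in Cl-BBQ, 8.78 in TCDD and 9.21 in vehicle arrays. Without vehicle replicate 3 it was called as lower with Cl-BBQ (limma, adjusted p = 0.042) and TCDD (0.017). Cd209a averaged 6.8 in Cl-BBQ, 6.89 in TCDD and 6.87 in vehicle arrays. Of 7 stromal and endothelial markers, whose mean was 4.61 to 5.11 in Cl-BBQ arrays, 4.87 to 5.02 in TCDD arrays and 4.89 to 5.10 in vehicle arrays, 6 were tested and 1, Pecam1, was called. The group means of the others lay between 4.08 and 4.63. Pecam1 averaged 8.33 in Cl-BBQ, 8.26 in TCDD and 8.69 in vehicle arrays, and which cells carried it was not tested. Pecam1 fell by 0.44 log2 with TCDD (limma, adjusted p = 0.036). It lost this call without any 1 of the 8 TCDD and vehicle arrays (0.061 to 0.1), with the replicate number as a block (0.068) and with no filter on low values (0.075). With Cl-BBQ it differed by -0.36 ± 0.11 (adjusted p = 0.05 after rounding, not called), its arrays were all below the vehicle arrays, and it was called under 4 other settings (0.026 to 0.049) and without Cl-BBQ replicate 4 (0.021). The part of other cells in the lower Tnfsf4 and Tnfsf8 was not tested.

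Fasl, the ligand with which cytotoxic lymphocytes kill Fas-bearing cells, rose with both AhR ligands. It lies on chromosome 1 next to Tnfsf18, which separates it from Tnfsf4, so that a called member that rose and one that fell are close neighbours. The window of its start is shown for comparison with that of Tnfsf8. It held none of the 3 motifs and so has no capitals.
Fasl, chr1:161788446-161788745, minus strand: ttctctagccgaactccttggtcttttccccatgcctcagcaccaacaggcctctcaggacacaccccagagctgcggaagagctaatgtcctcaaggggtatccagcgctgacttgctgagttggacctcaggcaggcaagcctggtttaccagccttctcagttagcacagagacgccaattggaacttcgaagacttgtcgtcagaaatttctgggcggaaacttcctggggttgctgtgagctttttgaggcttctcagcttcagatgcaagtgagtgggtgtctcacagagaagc
The values were 6.82, 7.52, 7.19, 6.87 and 7.35 in Cl-BBQ arrays, 7.08, 6.86, 7.09 and 7.17 in TCDD arrays and 5.50, 6.24, 6.25 and 5.24 in vehicle arrays. Vehicle arrays fell into a higher and a lower pair, and both pairs were below every other array. The difference was 1.34 ± 0.21 log2 with Cl-BBQ, 2.54-fold higher (limma, adjusted p = 0.00041), and 1.24 ± 0.22 with TCDD, 2.37-fold higher (adjusted p = 0.0022). Tnfsf10 (TRAIL), the other death ligand, averaged 5.85 ± 0.36 in Cl-BBQ arrays, 5.62 ± 0.14 in TCDD arrays and 5.33 ± 0.23 in vehicle arrays. Its difference missed the threshold, at 0.52 ± 0.17 with Cl-BBQ (adjusted p = 0.063) and 0.29 ± 0.18 with TCDD (adjusted p = 0.43). It was called with Cl-BBQ without Cl-BBQ replicate 1 (0.033) or 2 (0.034). Among 7 CD8 T and natural killer cell markers, whose mean per array was 4.22 to 4.42 in Cl-BBQ arrays, 4.07 to 4.40 in TCDD arrays and 4.27 to 4.34 in vehicle arrays, 0 were called and 2 had an unadjusted p below 0.05 in each comparison with vehicle. Over all tested genes 11.3% were called with Cl-BBQ and 6.71% with TCDD, so a count of 0 does not set this list apart. The differences of these markers did not all have one sign. Cd8a differed by 0.60 ± 0.25 with Cl-BBQ (limma, adjusted p = 0.15) and 0.58 ± 0.26 with TCDD (adjusted p = 0.25). It was above the floor on 4 Cl-BBQ, 3 TCDD and 0 vehicle arrays, so the size of its difference is limited by the floor. Its Cl-BBQ arrays were all above the vehicle arrays. Klrb1c (NK1.1) differed by -0.50 ± 0.16 with Cl-BBQ (adjusted p = 0.07) and -0.33 ± 0.17 with TCDD (adjusted p = 0.36). Klrb1c was called as lower with Cl-BBQ in 3 alternatives: with only the groups compared (0.045), without Cl-BBQ replicate 4 (0.029) and without TCDD replicate 1 (0.031). Ncr1, above the floor on 2 Cl-BBQ, 2 TCDD and 0 vehicle arrays, differed by 0.19 ± 0.13 with Cl-BBQ and 0.33 ± 0.14 with TCDD. Cd8b1 differed by 0.13 ± 0.20 with Cl-BBQ and -0.27 ± 0.21 with TCDD. Eomes, which was above the floor on 1 vehicle array and no other and was not tested, differed by -0.39 with Cl-BBQ and -0.62 with TCDD. The part of such cells in the Fasl difference was not tested.

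The remaining ligands showed no called difference. Ltb, which forms the membrane heterotrimer with lymphotoxin α, averaged 10.14 ± 0.15 in Cl-BBQ arrays, 9.80 ± 0.18 in TCDD arrays and 9.89 ± 0.27 in vehicle arrays, and Lta averaged 5.70 ± 0.15 in Cl-BBQ, 5.88 ± 0.14 in TCDD and 5.88 ± 0.10 in vehicle arrays. Tnfsf11 (RANK ligand), through which activated T cells act on osteoclasts and dendritic cells, measured 6.06 ± 0.20 in Cl-BBQ arrays, 5.98 ± 0.38 in TCDD arrays and 6.48 ± 0.08 in vehicle arrays. All Cl-BBQ arrays of this gene lay below the vehicle arrays, with a difference of -0.42 ± 0.15 (limma, adjusted p = 0.11), and the difference with TCDD was -0.50 ± 0.16 (adjusted p = 0.091). Leaving out TCDD replicate 2 brought both below the threshold, to 0.048 for Cl-BBQ and 0.015 for TCDD, and leaving out TCDD replicate 4 brought Cl-BBQ to 0.049. Tnfsf13b (BAFF), the B cell survival factor, lay at the floor, at 4.31 ± 0.12 in Cl-BBQ arrays, 4.38 ± 0.24 in TCDD arrays and 4.22 ± 0.10 in vehicle arrays. Counting arrays alone, 4 tested members lay wholly above vehicle and 4 wholly below it in Cl-BBQ, beside 6.08% and 6.8% of all tested genes, and 4 and 3 did so in TCDD, beside 6.31% and 7.28%.

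Not every member was measured above background. The mean over all arrays lay below the floor for 9 of 38 members: Cd70, Tnfrsf11a (RANK), Tnfrsf11b (osteoprotegerin), Tnfrsf13b (TACI), Tnfrsf17 (BCMA), Tnfrsf19, Tnfsf13b, Tnfsf15 and Tnfsf18. Tnfrsf13b, Tnfrsf17 and Tnfsf13b belong to the axis of B cells and plasma cells, and Tnfrsf11a and Tnfrsf11b to that of bone. In contrast 25 members were above the floor on all 13 arrays, including 5 of the 7 called ones. Of the 7 members that were not tested, 6 gave no call when no filter was applied. The exception, Tnfrsf13b, averaged 4.09 ± 0.15 in Cl-BBQ arrays, 3.61 ± 0.22 in TCDD arrays and 4.16 ± 0.17 in vehicle arrays. Its difference was -0.56 ± 0.13 for TCDD minus vehicle (limma without a filter, adjusted p = 0.03), between values that were all background except 1 vehicle array.

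**Figure D3:**
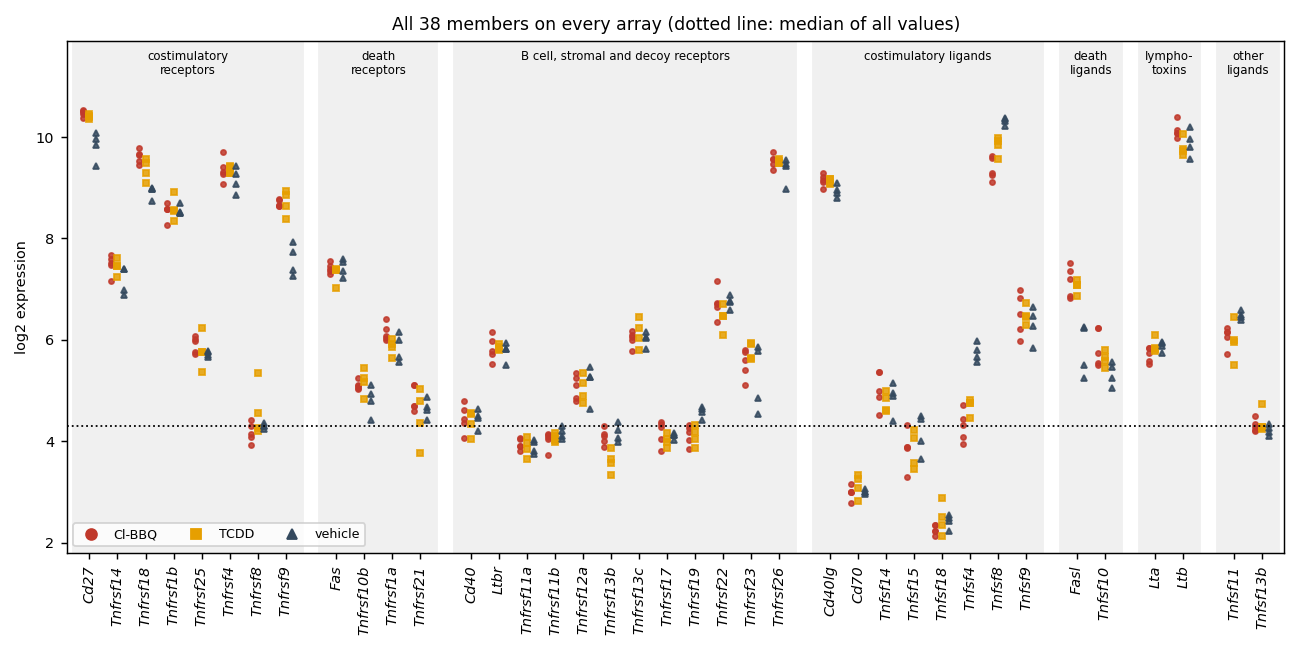
Log2 expression (y axis) of all 38 members on each of the 13 arrays, grouped by role (x axis), with Cl-BBQ as circles, TCDD as squares and vehicle as triangles; the y axis does not start at 0, and the dotted line is the floor of 4.31. The symbols of 25 members lie above the line on all arrays, and those of Cd70 and Tnfsf18 lie far below it.

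Set directly against each other, the regimens gave no called member: 0 of 31 passed in Cl-BBQ minus TCDD, with 6 of 31 at an unadjusted p below 0.05, and 0 had groups that did not overlap. Over all tested genes 0.0236% were called in this comparison, and 2.11% did not overlap, 1.03% higher and 1.08% lower with Cl-BBQ. The share of all tested genes at an unadjusted p below 0.05 was not computed, so the 6 of 31 are not read as an excess. The median difference over members was 0.03 log2, against -0.0044 over all tested genes. Tnfsf8 was lower with Cl-BBQ by a difference of -0.46 ± 0.12 (95% interval -0.71 to -0.20; limma, unadjusted p = 0.0019, adjusted p = 0.46). Tnfsf4 differed by -0.40 ± 0.15 (-0.71 to -0.09; adjusted p = 0.63) and Tnfrsf18 by 0.25 ± 0.11 (0.01 to 0.49; adjusted p = 0.75), in each case further from vehicle with Cl-BBQ. The other genes with an unadjusted p below 0.05 were Ltb at 0.33 ± 0.13, Tnfrsf1a at 0.29 ± 0.13 and Tnfrsf8 at -0.42 ± 0.19. For 3 of the called members whose direct difference was small, the intervals still allowed some difference: -0.31 to 0.29 for Tnfrsf9, -0.17 to 0.31 for Cd27 and -0.34 to 0.55 for Fasl. Since dose and schedule differed, this comparison is one of regimens and not of compounds at matched doses.

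Downstream of the receptors, of 24 listed adaptors and signalling genes, 22 had a probe set and all 22 were tested. In Cl-BBQ against vehicle 1 was called (4.55%), and in TCDD against vehicle 0 were called, with 0 at an unadjusted p below 0.05, against 11.3% and 6.71% of all tested genes. The called gene was Birc3 (cIAP2), an NF-kappaB target whose product ubiquitinates proteins of the receptor complex. It averaged 7.76 ± 0.15 in Cl-BBQ arrays, 7.33 ± 0.19 in TCDD arrays and 7.26 ± 0.24 in vehicle arrays, and all Cl-BBQ arrays were above the vehicle arrays. Its difference from vehicle was 0.50 ± 0.13 with Cl-BBQ (limma, adjusted p = 0.016) and 0.07 ± 0.13 with TCDD (adjusted p = 0.85), and the direct difference of 0.43 ± 0.13 was not called (adjusted p = 0.53). The Cl-BBQ call was lost without vehicle replicate 2 (0.051) or 3 (0.06). Traf1, Traf2, Traf4, Traf5 and Traf6 differed by 0.09 to 0.22 with Cl-BBQ and by -0.07 to 0.25 with TCDD, none called. Traf1, itself a target of NF-kappaB and a partner of 4-1BB, differed by 0.20 ± 0.13 with Cl-BBQ and 0.25 ± 0.14 with TCDD.

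Of 12 measured NF-kappaB factors and feedback genes, 1 was called in each comparison with vehicle (8.33%), also near those shares of all genes. Bcl3, a nuclear IκB protein that acts with p50 and p52, measured 8.67, 8.75, 9.04, 9.21 and 8.99 in Cl-BBQ arrays, 9.17, 8.97, 8.87 and 8.83 in TCDD arrays and 8.29, 8.29, 8.14 and 8.37 in vehicle arrays. The vehicle arrays were below all others. The difference was 0.66 ± 0.12 with Cl-BBQ, 1.58-fold higher (limma, adjusted p = 0.0013), and 0.69 ± 0.12 with TCDD, 1.61-fold higher (adjusted p = 0.0025). Tnf itself, whose symbol lies outside the naming rule, averaged 8.27 ± 0.42 in Cl-BBQ arrays, 8.30 ± 0.15 in TCDD arrays and 8.34 ± 0.42 in vehicle arrays. Its differences from vehicle, -0.07 ± 0.21 with Cl-BBQ and -0.03 ± 0.23 with TCDD, were within the spread of the arrays. Of 6 further family genes, Tnf included, 4 were tested and 0 were called. Edar had an unadjusted p below 0.05 in Cl-BBQ against vehicle (0.35 ± 0.16, adjusted p = 0.21), and in TCDD against vehicle 0 did.

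**Figure D4:**
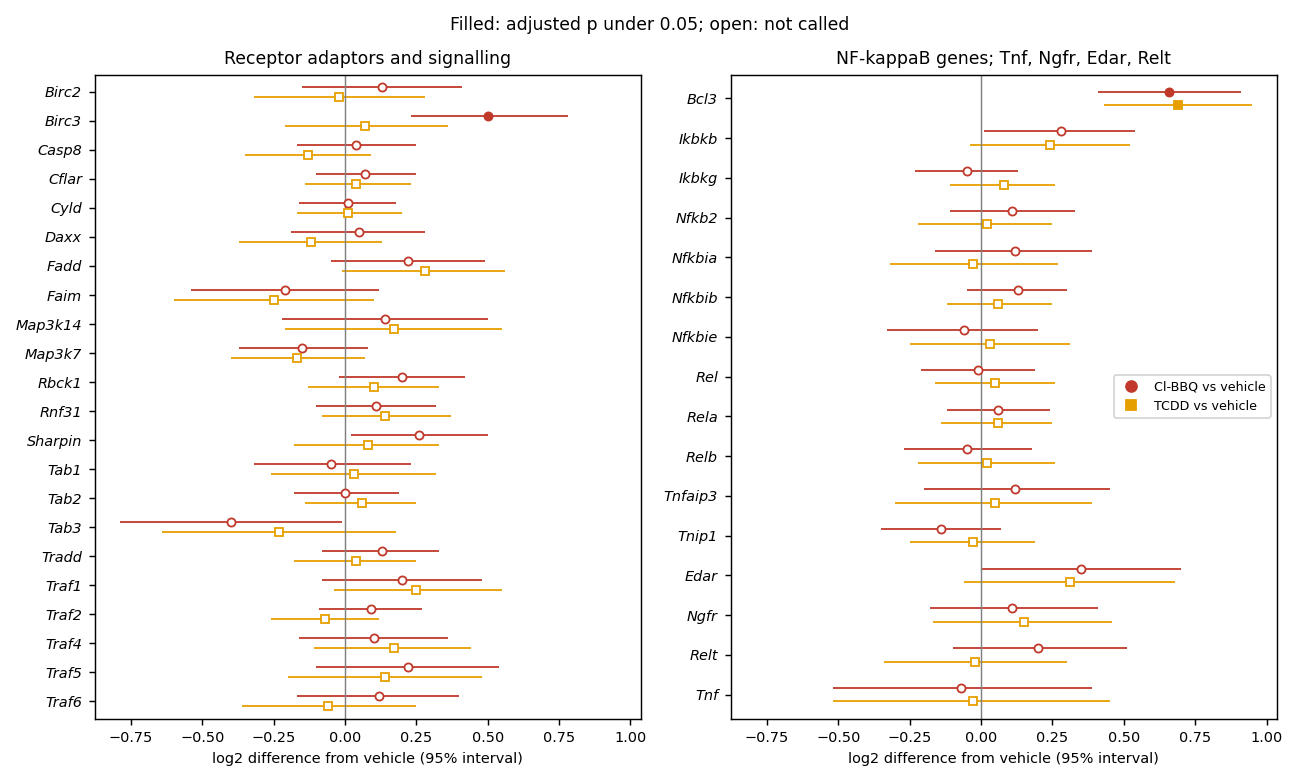
Log2 difference from vehicle and 95% interval (x axis) of 22 receptor adaptors and signalling genes (left) and of 12 NF-kappaB genes with Tnf, Ngfr, Edar and Relt (right), with Cl-BBQ as circles and TCDD as squares. Filled symbols, adjusted p below 0.05, are those of Birc3 with Cl-BBQ (0.50) and of Bcl3 with Cl-BBQ (0.66) and TCDD (0.69).

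Beyond what the symbols share, the members were described by position and by the letters around their starts. A member has another member as a neighbour, with at most 1 gene between, in 20 of 38 cases. Besides those named, Tnfsf9, Cd70 and Tnfsf14 are neighbours on chromosome 17, and Tnfsf15 adjoins Tnfsf8 on chromosome 4. The windows were matched for 29 of the 38 members (33 windows in all) and for 6 of the 7 called ones. GCGTG occurred on either strand in 12 of the 33 member windows (36.4%), against 32.4% of 32851 windows of all genes. The AP-1 motif TGANTCA occurred in 6 (18.2%), against 7.81%, and the NF-kappaB motif in 4 (12.1%), against 4.79%. Among the AP-1 windows, those of both Tnfsf13b starts overlap and hold the same match, which is thus counted in each. Of the called members, Tnfsf8 and Tnfrsf19 had GCGTG in a window, and Tnfrsf9, Cd27, Tnfrsf18 and Fasl did not, while Tnfsf4 had no matched window. With so few windows, and with Tnfrsf19 above the floor on its vehicle arrays and 1 Cl-BBQ array alone, nothing is read from this about the direction of change. No match says only that these letters are not in this window.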

How the data were processed

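Total RNA of sorted cells was labelled with biotin and hybridised to 1-colour Affymetrix arrays, per the labels. The deposited values are log2 expression values, which the authors made by RMA, per the submitters' processing notes. The sources used here give neither the version and software nor the annotation and genome build. No further normalization was applied to the values. Of 41345 probe sets, 23521 had 1 gene symbol in GEO's platform annotation, 1814 had several and 16010 had none. Each gene was represented by its probe set of highest mean across the 13 arrays. Genes above the median of all values (4.31) on at least 4 arrays were fitted with limma 3.58.1 in R 4.3.3 (lmFit and eBayes, group means, all 3 groups in a single fit, residual df 10, prior df 4.22). Tests were two-sided with Benjamini-Hochberg adjustment. The procedure was also run on simulated independent normal values with added differences. That run cannot show effects of the floor or of dependence between genes or arrays. The number of arrays limits the precision. The members, role lists, marker lists and tests were chosen with earlier results of these data known. Members called in any comparison are given in full, and other members by level and difference. From the signalling lists, called genes, Tnf and the Traf genes are named. Traf3, Ripk1, Nfkb1 and Chuk were not analysed here. Windows around transcript starts are RefSeq sequences of GRCm38.p6, matched by symbol, and a match of motif letters was searched on both strands. Alternatives covered normalization, the filter, the probe set, the prior, the samples fitted, the replicate number as a block and each array left out in turn.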

Additional observations from a re-analysis of the deposited data

Results flagged for a closer look

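A value was taken up here when, in a group of 4 or 5 arrays, the highest or lowest array stood apart from its nearest neighbour by more than Dixon's 95% critical value, as a share of the group's range. Chance alone does so in about 1 in 20 groups. It held for 14 of the 234 groups examined and for 7 of the 114 groups of members. Among members, the low arrays were Cl-BBQ replicate 1 for Tnfrsf11b (3.73, nearest 4.05) and for Tnfrsf1b (8.26, nearest 8.58), TCDD replicate 4 for Tnfsf4 (4.46, nearest 4.75) and for Fas (7.02, nearest 7.37), and vehicle replicate 2 for Tnfrsf18 (8.73, nearest 8.97). The high ones were TCDD replicate 1 for Tnfsf13b (4.74, nearest 4.27) and vehicle replicate 3 for Tnfrsf1b (8.69, nearest 8.52). Of these genes Tnfsf4 and Tnfrsf18 are called members. Without TCDD replicate 4 the TCDD difference of Tnfsf4 had an adjusted p of 0.0024 in limma, and without vehicle replicate 2 that of Tnfrsf18 was 0.38 log2 with an adjusted p of 0.1.

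Among the signalling genes and the other family genes, the low arrays were TCDD replicate 2 for Daxx (8.92, nearest 9.31) and for Faim (6.70, nearest 7.00), vehicle replicate 3 for Traf4 (5.36, nearest 5.85) and for Ikbkg (5.60, nearest 5.75), and vehicle replicate 1 for Relb (6.66, nearest 6.71) and for Eda (3.34, nearest 3.67). TCDD replicate 4 was high for Nfkbie (7.09, nearest 6.90). None of these genes was called in a comparison.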

How the results depend on the processing

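Tnfrsf9, Cd27, Fasl and Tnfsf4 kept their calls in both comparisons with vehicle under every alternative run, and Tnfrsf18 and Tnfsf8 did so with Cl-BBQ. With no filter on low values, Tnfrsf18 (adjusted p = 0.066, limma), Tnfsf8 (0.062) and Tnfrsf19 (0.06) were no longer called with TCDD. No called member changed direction. With Cl-BBQ, Tnfsf10 was called after a further quantile normalization (0.045) and with a floor of 5 (0.05), and Tnfsf11 when only the groups compared were fitted (0.039). With a floor of 5, 25 members were tested and Tnfrsf19 was not among them. Tnfsf4 passed that floor only through its vehicle arrays (5.56 to 5.98), as its highest values were 4.71 with Cl-BBQ and 4.81 with TCDD. Its call in that run is therefore no added support. Leaving out 1 array at a time gave 6 to 8 called members in Cl-BBQ against vehicle, 4 to 7 in TCDD against vehicle (4 without TCDD replicate 1, vehicle replicate 2 or vehicle replicate 4) and 0 to 0 in Cl-BBQ against TCDD; called genes numbered 1185 to 1433, 644 to 955 and 0 to 5. The causes were not tested. The 3 genes called in Cl-BBQ against TCDD became 6 with a further quantile normalization, 6 with a floor of 5, 6 with an intensity trend and robust prior, 5 with the mean of all probe sets, 0 with no filter and 0 with only the groups compared.

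The labels do not say whether arrays with the same replicate number were paired, and little sign of it was seen. Deviations of same-numbered arrays correlated at -0.059 to 0.031 for Cl-BBQ with vehicle, -0.043 to 0.075 for TCDD with vehicle and -0.053 to 0.004 for Cl-BBQ with TCDD. Such low values do not show that the samples were unpaired. With the replicate number as a block, 1114, 714 and 0 genes were called in Cl-BBQ against vehicle, TCDD against vehicle and Cl-BBQ against TCDD, and 7, 7 and 0 members.

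RMA values near the floor compress differences, which limits Tnfsf4, Tnfrsf19, the markers Cd22, Cybb, Cd8a and Ncr1 and the 7 members not tested. With 4 or 5 arrays a group, the SE of a tested member's difference was 0.09 to 0.26 log2.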
